A study of Homo sapiens with 6 samples.

Results

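The aryl hydrocarbon receptor system was followed through 6 genes: the receptor AHR, its dimer partner ARNT, the repressor AHRR, and 3 genes that the receptor is known to induce, CYP1A1, CYP1B1 and TIPARP. PolyA RNA was sequenced from SiHa, a cell line grown from a human squamous carcinoma of the cervix. The 3 circ_0005358 libraries came from cells transfected with a plasmid that carries hsa_circ_0005358, a circular RNA, and the 3 vector libraries from cells transfected with the vector plasmid alone. All cells were collected 72 h after transfection. The labels number the libraries without tying them to separate cultures, and every p-value therefore reflects only how these libraries vary, and that variation may be technical. The circular RNA itself was not analysed here, so its level in the cells is not known from these values.

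The genes were found by symbol in a deposited table of 35544 loci, each with 1 FPKM value per library (fragments scaled for transcript length and library size). Each symbol stood on 1 row, so the rule of keeping the row with the highest mean FPKM had nothing to choose between. All 6 rows had FPKM of at least 1 in at least 3 libraries and were among the 10295 loci tested. The genes were chosen by their pathway with earlier FPKM differences between these same groups in view, so the calls below are a description and support nothing further. In bulk RNA, fewer cells that express a gene and less of its RNA per cell cannot be told apart. CYP1A1 and TIPARP had rows of their own, and the other 4 genes shared a row with neighbouring genes. The AHR row also held 2 noncoding loci, and 5 of its 8 transcripts belonged to AHR. The CYP1B1 row joined CYP1B1, with 6 of 17 transcripts, to the noncoding RMDN2-AS1, with 8, which overlaps its end on the same strand. The ARNT row joined ARNT, with 12 of 19 transcripts, to the cathepsin genes CTSS and CTSK. The AHRR row joined AHRR, with 11 of 48 transcripts, to SDHA, a subunit of the respiratory chain, with 20, and to PDCD6, a calcium-binding protein gene, with 14. In a joined row the parts of the genes cannot be told apart, and the AHRR row in particular is no measure of AHRR alone.

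The receptor waits in the cytoplasm with HSP90 chaperones, and binds planar aromatic compounds from smoke and combustion as well as tryptophan derivatives. With a ligand it enters the nucleus, pairs with ARNT and binds DNA elements with the core GCGTG, which switches on CYP1A1 and CYP1B1, cytochrome P450 enzymes that oxidize aromatic hydrocarbons and oestrogens. AHRR and TIPARP, themselves induced, limit the receptor: AHRR competes for ARNT and for DNA, and TIPARP attaches ADP-ribose to the receptor. CYP1A1 is often read as the marker of receptor activity, and CYP1B1 is the member of the family that is frequent in tumours outside the liver.

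Of the 6 genes, CYP1A1 rose and the CYP1B1 row fell in the circ_0005358 libraries, and AHR, ARNT, AHRR and TIPARP did not pass the test. CYP1A1 was 1.85 times as high with circ_0005358 as with vector, and the CYP1B1 row stood at 0.735 of its vector level. Both are usually read as targets of the receptor, and they differed in direction. These 2 calls among 6 stand beside 11.4% of all tested loci called at an adjusted p under 0.05. Groups did not overlap for 3 of the 6, CYP1A1, CYP1B1 and AHR, beside 35.8% of all tested loci.

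**Figure D1:**
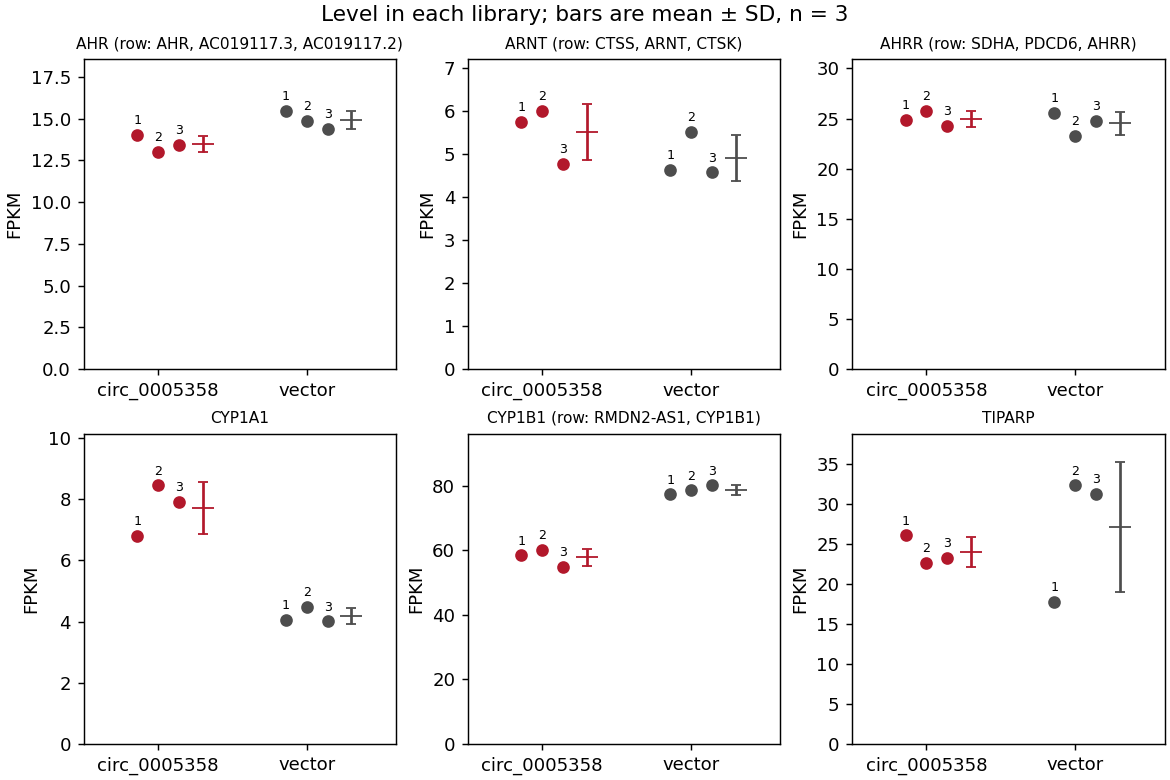
FPKM of each gene's row in each library (y axis, from 0), with circ_0005358 at the left and vector at the right of each panel; points are libraries, numbered by replicate, and bars are the mean and SD (n = 3). CYP1A1 is higher in all 3 circ_0005358 libraries and the CYP1B1 row lower, while TIPARP has 1 low vector library at 17.8 FPKM.

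The AHR row had 14.0, 13.0 and 13.4 FPKM in the circ_0005358 libraries, against 15.5, 14.8 and 14.4 FPKM in the vector libraries. Every circ_0005358 library lay below every vector library, by a small margin. The group means were 13.5 ± 0.496 and 14.9 ± 0.541 FPKM (SD, n = 3 each), a ratio of 0.905. The difference in log2(FPKM + 1), a scale that shrinks the changes of low genes, was -0.13 with a standard error of 0.056 (95% interval from -0.28 to 0.0060; limma adjusted p = 0.198). The spread within groups on that scale, an SD of 0.049, stood at percentile 8.98 of all tested loci, so the interval is narrow. AHR (ENSG00000106546) spans chromosome 7, 16916359 to 17346152 of GRCh38 (plus strand).

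ARNT, which also pairs with the hypoxia factors, sits on a row with 5.75, 6.01 and 4.77 FPKM in the circ_0005358 libraries and 4.64, 5.52 and 4.58 FPKM in the vector libraries. The groups overlapped, with circ_0005358 replicate 3 inside the vector range. The log2 difference was 0.14 (standard error 0.11, 95% interval from -0.13 to 0.41, limma adjusted p = 0.477). The row's neighbours CTSS and CTSK are lysosomal proteases, and their part in the value cannot be told apart from ARNT's. ARNT (ENSG00000143437) spans chromosome 1, 150809705 to 150876768 of GRCh38 (minus strand).

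The row that holds AHRR stood at 24.8, 25.8 and 24.3 FPKM with circ_0005358 and at 25.6, 23.2 and 24.7 FPKM with vector. The groups overlapped, and the log2 difference was 0.026 (standard error 0.058, 95% interval from -0.12 to 0.17, limma adjusted p = 0.814). The sign turned to -0.0089 when libraries were rescaled to the same FPKM sum, and to -0.011 without vector replicate 2. SDHA has near-identical pseudogene copies that can share its reads, of which SDHAP1 had 6.37, 6.47 and 7.53 FPKM with circ_0005358 and 5.37, 6.04 and 6.98 FPKM with vector. AHRR (ENSG00000063438) spans chromosome 5, 304176 to 438291 of GRCh38 (plus strand), and it overlaps PDCD6, which ends at 353856.

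CYP1A1 had 6.79, 8.46 and 7.90 FPKM in the circ_0005358 libraries, against 4.04, 4.49 and 4.01 FPKM in the vector libraries. All 3 circ_0005358 libraries lay above all 3 vector libraries, and the gap between the groups was wider than the range within either. The means were 7.72 ± 0.849 and 4.18 ± 0.269 FPKM (SD, n = 3 each). The log2 difference was 0.75 (standard error 0.093, 95% interval from 0.52 to 0.98, limma adjusted p = 0.00833). Its size exceeded that of about 93.5% of tested loci. By permutation of FPKM between the groups (exact, two-sided) p was 0.1, the smallest that 3 against 3 libraries allow. The call held without any 1 library, with adjusted p from 0.0130 to 0.0425. Leaving out both vector replicate 3 and circ_0005358 replicate 2 ended it, with a log2 difference of 0.66 and adjusted p = 0.0949. With replicate number added to the fit the call held only narrowly (limma adjusted p = 0.0483). CYP1A2, the liver enzyme of the family that lies next to CYP1A1, was near 0, at 0.0394 ± 0.0194 FPKM with circ_0005358 and 0.122 ± 0.145 FPKM with vector (SD, n = 3 each).

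CYP1A1 (ENSG00000140465) spans chromosome 15, 74719542 to 74725610 of GRCh38 (minus strand). To show how the receptor's core motif was searched, the 250 bases before its RefSeq start are given, which hold 1 match. They stand with those of AHR, which hold none, and of the upstream start of TIPARP, which hold 2. A link between matches and the differences in level was not tested. Capitals mark GCGTG or its reverse complement CACGC, which were searched on both strands and do not overlap each other here.
CYP1A1, chr15:74725529-74725778, minus strand: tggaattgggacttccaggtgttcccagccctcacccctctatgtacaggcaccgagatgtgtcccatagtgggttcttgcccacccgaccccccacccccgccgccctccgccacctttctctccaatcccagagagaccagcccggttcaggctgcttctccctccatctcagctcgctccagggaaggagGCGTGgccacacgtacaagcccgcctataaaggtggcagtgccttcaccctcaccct
AHR, chr7:17298402-17298651, plus strand: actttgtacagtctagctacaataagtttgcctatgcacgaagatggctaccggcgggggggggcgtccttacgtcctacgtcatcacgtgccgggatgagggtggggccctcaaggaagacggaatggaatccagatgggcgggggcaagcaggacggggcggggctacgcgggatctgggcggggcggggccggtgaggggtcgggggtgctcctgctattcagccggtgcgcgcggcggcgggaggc
TIPARP, chr3:156674340-156674589, plus strand: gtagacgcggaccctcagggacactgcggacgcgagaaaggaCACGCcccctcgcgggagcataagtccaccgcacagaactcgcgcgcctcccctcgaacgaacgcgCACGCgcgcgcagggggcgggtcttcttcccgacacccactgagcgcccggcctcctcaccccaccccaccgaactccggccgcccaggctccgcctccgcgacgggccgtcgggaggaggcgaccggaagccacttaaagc
All are written 5′ to 3′ on the gene's strand, from RefSeq on GRCh38.p14. The match in CYP1A1 begins at position -57 counted from the start, and those in TIPARP at -208 and -142. At least 1 match was found in 32.2% of the 35116 upstream windows of the same length in the table. Of the 8 windows of these genes, AHRR's 2 starts hold 1 and 2 matches and ARNT's holds 0, as do the other 2 starts of TIPARP. CYP1B1 has no entry. A match is a stretch of letters and no evidence of binding, and these windows leave out more distant elements.

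The CYP1B1 row had 58.4, 60.2 and 55.0 FPKM in the circ_0005358 libraries, against 77.4, 78.7 and 80.2 FPKM in the vector libraries. All 3 circ_0005358 libraries were lower, with a gap wider than the range within either group. The means were 57.9 ± 2.67 and 78.8 ± 1.41 FPKM (SD, n = 3 each), and the log2 difference was -0.44 (standard error 0.053, 95% interval from -0.57 to -0.31, limma adjusted p = 0.00753). By exact two-sided permutation p was again 0.1. The call held without any 1 library, with adjusted p from 0.0178 to 0.0418. It was lost without both vector replicate 3 and circ_0005358 replicate 2 (adjusted p = 0.0708, log2 difference -0.45). It was also lost when replicate number was added to the fit (adjusted p = 0.0760). The antisense gene CYP1B1-AS1, which overlaps CYP1B1 on the other strand, had a row of its own at 0.470, 0.632 and 0.590 FPKM with circ_0005358 and 0.467, 0.550 and 0.601 FPKM with vector. Whether the libraries keep strand is not given in the sources used here, so reads of CYP1B1 and of its antisense partner cannot be told apart with certainty. CYP1B1 (ENSG00000138061) spans chromosome 2, 38066973 to 38109902 of GRCh38 (minus strand), and RMDN2-AS1 runs from 37949911 to 38067041 on that strand.

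The CYP1B1 row was the more abundant of the pair in every library. FPKM is scaled by length, so levels can be set side by side, although the CYP1B1 row holds more than CYP1B1. The ratio of the CYP1B1 row to CYP1A1 was 8.60, 7.12 and 6.96 in the circ_0005358 libraries, against 19.2, 17.5 and 20.0 in the vector libraries. The ratio of CYP1A1 to the AHR row was 0.485, 0.650 and 0.589 with circ_0005358 and 0.261, 0.302 and 0.278 with vector. Over the 6 libraries log2 levels of CYP1A1 and the CYP1B1 row had a Pearson correlation of -0.95, a description that rests on the difference between the groups. Within the circ_0005358 libraries the order of the 2 levels was not opposite, since replicate 2 had the highest value of each.

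**Figure D2:**
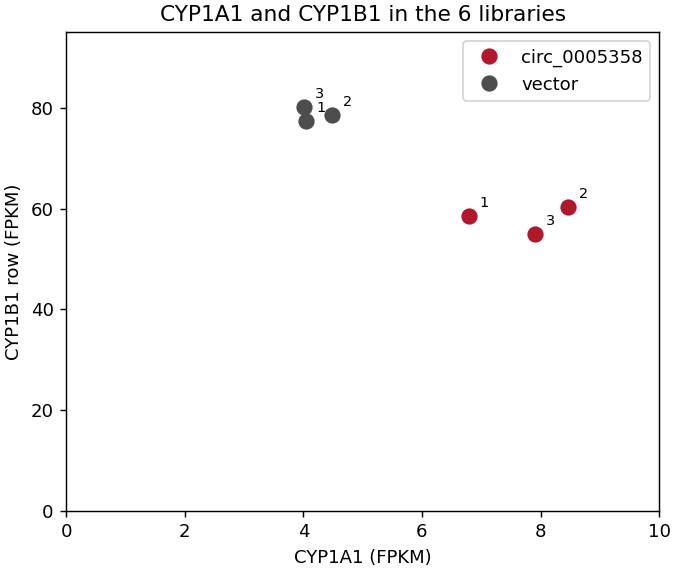
CYP1A1 FPKM (x axis) against FPKM of the CYP1B1 row (y axis) in the 6 libraries, both axes from 0, points numbered by replicate and coloured by group. The circ_0005358 libraries lie at the lower right, with 6.79 to 8.46 FPKM of CYP1A1, and the vector libraries at the upper left, with 77.4 to 80.2 FPKM in the CYP1B1 row.

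TIPARP, which encodes the mono-ADP-ribosyltransferase PARP7, had 26.1, 22.6 and 23.3 FPKM in the circ_0005358 libraries and 17.8, 32.4 and 31.2 FPKM in the vector libraries. The circ_0005358 libraries lay between the low vector replicate 1 and the other 2 vector libraries. The log2 difference was -0.13 with a 95% interval from -0.72 to 0.47 (standard error 0.24, limma adjusted p = 0.776), which spans moderate changes in either direction. The vector libraries had a coefficient of variation of 29.8%, against 7.72% in the circ_0005358 libraries. Without vector replicate 1 the difference was -0.39 (adjusted p = 0.0842), and without vector replicate 2 it was 0.019 (adjusted p = 0.973), so the value and its sign depend on which vector libraries enter. CDKN1A, a p53 target on the list of inducible genes, had its low vector value in the same library, with 31.3, 37.5 and 33.1 FPKM with circ_0005358 and 25.9, 84.2 and 88.5 FPKM with vector. It was chosen after its values were seen. TIPARP (ENSG00000163659) spans chromosome 3, 156673235 to 156706770 of GRCh38 (plus strand).

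**Figure D3:**
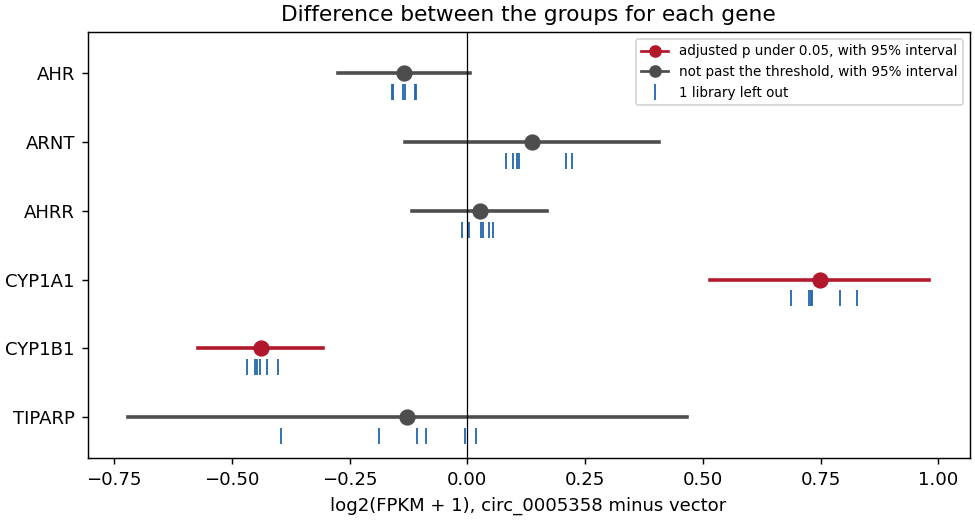
Difference between the groups on the log2(FPKM + 1) scale (x axis, circ_0005358 minus vector) for the row of each gene (y axis); points are the limma estimate, lines its 95% interval, and blue ticks the estimate with 1 library left out. CYP1A1 lies at 0.75 and CYP1B1 at -0.44 with all ticks on their own side of 0, while the ticks of AHRR and TIPARP fall on both sides.

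Ordered by level, the circ_0005358 libraries ran from the CYP1B1 row through the AHRR row, TIPARP, the AHR row and CYP1A1 to the ARNT row. In the vector libraries TIPARP stood above the AHRR row and ARNT above CYP1A1. The library values of TIPARP and the AHRR row overlapped within each group, so their order is not resolved. CYP1A1 and the ARNT row did not overlap within either group: CYP1A1 was the higher of the pair with circ_0005358, at 6.79 to 8.46 FPKM against 4.77 to 6.01 FPKM, and the lower with vector, at 4.01 to 4.49 FPKM against 4.58 to 5.52 FPKM. By mean log2 level the CYP1B1 row was above about 97.4% of tested loci and CYP1A1 above about 50.1%.

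Loci with the most similar pattern over the 6 libraries were named for each gene, as a description that largely reflects the 2 groups. For CYP1A1 they were PLOD3, a lysyl hydroxylase of collagen, RRP1, a ribosome assembly factor, and RGS10, a regulator of G protein signalling, with Pearson correlations of 0.998, 0.996 and 0.995. PLOD3 averaged 23.9 FPKM with circ_0005358 and 16.8 FPKM with vector. For the CYP1B1 row they were SLC7A1, a transporter of basic amino acids, GPRC5A, an orphan receptor, and BACE2, an aspartic protease (0.998, 0.997 and 0.996), with GPRC5A at 74.9 FPKM with circ_0005358 and 120.1 FPKM with vector. Such high values are common, since 361 of 8708 loci reached 0.95 with CYP1A1 and 297 of 8709 with the CYP1B1 row. For the AHR row the closest were SLC25A17, MAGOHB and the growth factor gene AREG (0.993, 0.992 and 0.990). For TIPARP, FERMT2 and CLCN3 were among the closest (0.977 and 0.971). TBC1D10B, MAX and MAPK7 were closest to the ARNT row (0.982, 0.980 and 0.980), and JTB, BAX and LMBR1L to the AHRR row (0.967, 0.965 and 0.954).

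The rest of the pathway was read from lists by role, which were drawn up with earlier results of these data known. They hold 131 genes besides the 6, of which 85 had a row of their own and passed the filter, 35 had one but lay below it, and 11 stood only on joined rows. Of the 85, 13 rose and 8 fell, 24.7%, beside 11.4% of all tested loci, where 6.41% rose and 4.96% fell. That balance depends on scaling: with libraries rescaled to the same FPKM sum, 531 loci were called higher and 567 lower, and the pathway genes had 9 rises and 8 falls. Their median log2 difference was -0.014, against 0.022 over all tested loci. The share called in each list below stands beside the same 11.4%. The counts depended on the libraries: 11 of the 21 calls held without any 1 library and 10 were lost without at least 1. Without both vector replicate 3 and circ_0005358 replicate 2, 6 calls were left, those of PTGES3, AKR1C1, EREG, HES1, STC2 and TGFBI. Rises numbered 7, 10 and 8 without circ_0005358 replicates 1, 2 and 3, and 6, 6 and 7 without vector replicates 1, 2 and 3. Falls numbered 5, 7 and 5 without circ_0005358 replicates 1, 2 and 3, and 8, 5 and 6 without vector replicates 1, 2 and 3.

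**Figure D4:**
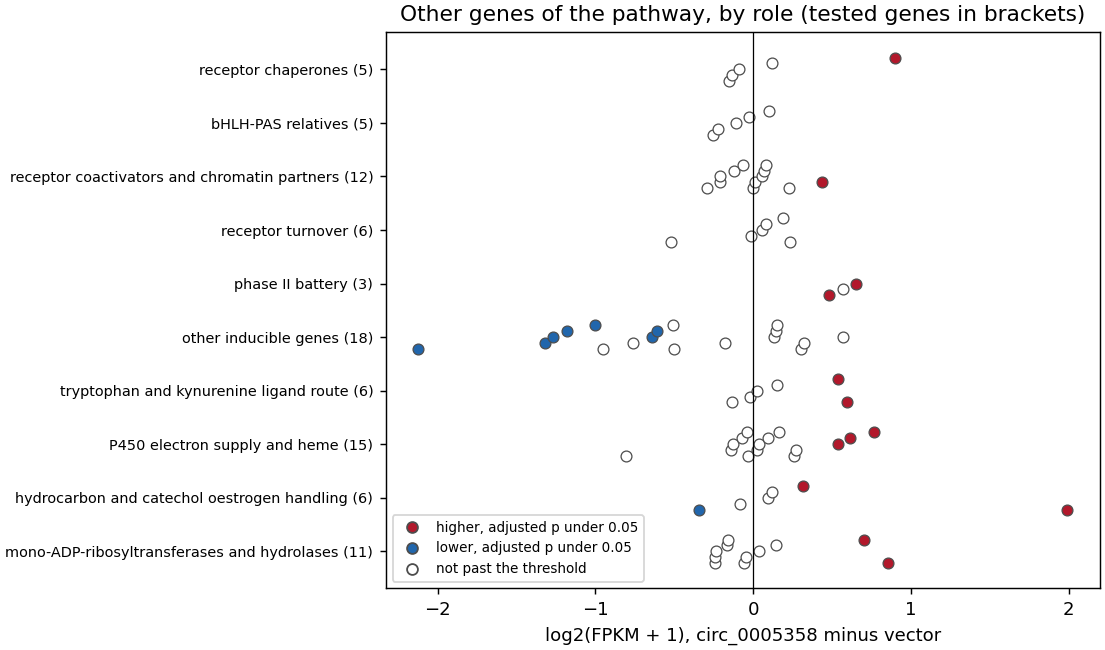
Log2 difference, circ_0005358 minus vector (x axis), for tested genes of each list (y axis, with the number tested in brackets), 1 point per gene, filled where the adjusted p was under 0.05. SLC7A5 and NFE2L2 stand on 2 lists each. Of the other inducible genes 7 of 18 fell, with EREG lowest at -2.12, beside 4.96% of all tested loci that fell. The lists were drawn up with earlier results of these data known.

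Among the chaperones that hold the receptor in the cytoplasm, 1 of 5 rose and 0 fell (20.0%, median -0.087). The one that rose was PTGES3, the p23 co-chaperone, with 134.7, 117.1 and 127.8 FPKM in the circ_0005358 libraries, against 68.8, 68.0 and 64.6 FPKM in the vector libraries. Its groups were far apart, and the log2 difference was 0.90 (standard error 0.068, limma adjusted p = 0.00172), a call that held under all 17 alternatives tried. The HSP90 genes, far more abundant, did not pass: HSP90AA1 averaged 422 ± 16.5 and 449 ± 27.2 FPKM and HSP90AB1 372 ± 7.88 and 343 ± 23.8 FPKM with circ_0005358 and with vector (SD, n = 3 each; adjusted p = 0.445 and 0.311). Chaperone genes have processed pseudogenes that can share their reads.

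Of 5 tested relatives of AHR and ARNT, which share the bHLH-PAS fold, 0 passed the test with limma. The hypoxia factor EPAS1 averaged 33.1 ± 2.73 FPKM with circ_0005358 and 35.7 ± 1.84 FPKM with vector, and the clock gene PER3 3.58 ± 0.157 and 4.41 ± 1.06 FPKM (SD, n = 3 each). ARNT2, the closest relative of ARNT, lay below the filter, at 0.101 to 0.137 FPKM with circ_0005358 and 0.152 to 0.261 FPKM with vector. Of 12 coactivators and chromatin partners, 1 rose and 0 fell (8.33%, median 0.0062). It was NRIP1, a corepressor of nuclear receptors, at 3.89 ± 0.421 FPKM with circ_0005358 and 2.61 ± 0.231 FPKM with vector (SD, n = 3 each; adjusted p = 0.0413). That call was lost without any library but circ_0005358 replicate 2, with adjusted p up to 0.122. NCOA3 and MED1, the most abundant of the list, had log2 differences of 0.22 and -0.12 (adjusted p = 0.333 and 0.262). Of 6 genes that take part in degrading the receptor, 0 passed with limma, with CUL4B at 0.24 and DDB1 at 0.082 (adjusted p = 0.401 and 0.384).

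The list of classical phase II genes that the receptor shares with NRF2 also held NFE2L2, the gene for NRF2 itself. Of its 3 tested genes 2 rose, NQO1 and ALDH3A1 (66.7%), beside 11.4% of all tested loci called. The median of the list, 0.57, was the value of NFE2L2. NQO1, a quinone reductase, had 523.7, 410.4 and 498.7 FPKM with circ_0005358, against 353.4, 334.6 and 332.5 FPKM with vector. All circ_0005358 libraries were higher (log2 difference 0.48, standard error 0.10, adjusted p = 0.0406), but the call was lost without any library but circ_0005358 replicate 2, with adjusted p up to 0.131. ALDH3A1, an aldehyde dehydrogenase, had 6.29, 6.46 and 6.20 FPKM with circ_0005358 and 4.03, 3.12 and 3.85 FPKM with vector. Its log2 difference was 0.65 (standard error 0.091, adjusted p = 0.0118), and the call held without any 1 library. With replicate number in the fit the ALDH3A1 call was lost (adjusted p = 0.0794). NFE2L2 did not pass (adjusted p = 0.379) and had 1 low vector library, with 20.6, 22.0 and 8.27 FPKM against 23.4, 24.2 and 23.6 FPKM with circ_0005358. Without vector replicate 3 its log2 difference was 0.15. The UGT1A genes share 1 row and were not tested as genes. GSTA1 and GSTA2 lay below the filter and were not tested either. GSTA1 had 0, 0 and 0.0244 FPKM with circ_0005358 and 0.0265, 0.0148 and 0.164 FPKM with vector. GSTA2 had 0.0573, 0.0466 and 0.0777 FPKM with circ_0005358 and 0.337, 0.595 and 0.131 FPKM with vector.

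Of 18 tested genes of other kinds, reported as inducible through the receptor in some cells, 7 fell and 0 rose (38.9%, median -0.56). Over all tested loci 11.4% were called and 4.96% fell. EREG, an EGF family ligand, had 5.63, 7.08 and 4.85 FPKM in the circ_0005358 libraries, against 30.0, 28.7 and 27.0 FPKM in the vector libraries, 0.205 of the vector level. Its log2 difference was -2.12 (standard error 0.13, adjusted p = 0.000947). HES1, a Notch-responsive repressor, had 3.42, 3.15 and 3.31 FPKM with circ_0005358 and 7.46, 7.86 and 7.51 FPKM with vector (ratio of means 0.433, adjusted p = 0.000771). STC2, a secreted glycoprotein gene, averaged 3.40 ± 0.169 and 9.59 ± 0.796 FPKM, and TGFBI, a matrix protein gene, 5.11 ± 0.158 and 12.9 ± 0.601 FPKM, with circ_0005358 and with vector (SD, n = 3 each; adjusted p = 0.000947 and 0.000558). The calls of EREG, HES1, STC2 and TGFBI held under all 17 alternatives. The cytokine gene IL6 fell to 1.41 ± 0.385 FPKM with circ_0005358, against 4.98 ± 0.501 FPKM with vector (SD, n = 3 each; adjusted p = 0.00510), and held without any 1 library. With replicate number in the fit the IL6 call was lost (adjusted p = 0.0616). AREG, another EGF family ligand, and ID3, an inhibitor of bHLH factors, had log2 differences of -0.64 and -0.61 (adjusted p = 0.0455 and 0.0359). The AREG call was lost without any 1 library (adjusted p up to 0.126), and the ID3 call without any but circ_0005358 replicate 2 (adjusted p up to 0.113). These genes answer to other pathways as well, and EREG, IL6, TGFBI and HES1 are textbook targets of growth factor, NF-kB, TGF-beta and Notch signalling. SLC7A5, an amino acid transporter, was the most abundant of the list and varied widely, with 452.9, 1088 and 975.8 FPKM with circ_0005358 and 548.2, 536.6 and 1198 FPKM with vector.

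Among genes of the tryptophan and kynurenine route, which makes natural ligands of the receptor, 2 of 6 tested rose and 0 fell. That share was 33.3% (median 0.086), beside 11.4% of all tested loci called. KYNU, which cleaves kynurenine, averaged 2.45 ± 0.0901 FPKM with circ_0005358 and 1.39 ± 0.343 FPKM with vector, and KYAT1, a kynurenine aminotransferase, 3.23 ± 0.474 and 1.80 ± 0.0658 FPKM (SD, n = 3 each; adjusted p = 0.0453 and 0.0185). The KYNU call was lost without any 1 library (adjusted p up to 0.128), and the KYAT1 call without circ_0005358 replicate 1 or vector replicates 1, 2 or 3 (adjusted p up to 0.0731). The enzymes that open the route were near 0: TDO2 reached 0.010 FPKM and IDO1 0.040 FPKM in the highest library. SLC3A2, the partner chain of SLC7A5, averaged 149.6 ± 11.1 FPKM with circ_0005358 and 148.2 ± 22.5 FPKM with vector (SD, n = 3 each; adjusted p = 0.931).

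Of 15 tested genes that supply P450 enzymes with electrons and heme or break heme down, 3 rose and 0 fell (20.0%, median 0.038). POR, the reductase that feeds electrons to CYP1 enzymes, had 14.5, 16.6 and 13.6 FPKM with circ_0005358, against 8.98, 9.25 and 9.83 FPKM with vector. The groups did not overlap (log2 difference 0.61, standard error 0.086, adjusted p = 0.0119), and the call was lost without vector replicate 1 or 2, with adjusted p up to 0.0558. The others act in heme breakdown: HMOX1, heme oxygenase, averaged 18.6 ± 1.06 and 10.5 ± 1.33 FPKM, and BLVRB, a biliverdin reductase, 19.5 ± 1.03 and 13.1 ± 0.460 FPKM, with circ_0005358 and with vector (SD, n = 3 each; adjusted p = 0.0106 and 0.00612). Both calls held without any 1 library. They were lost without both vector replicate 3 and circ_0005358 replicate 2, and when replicate number was added to the fit. ALAS1, the first enzyme of heme synthesis, did not pass, with a log2 difference of -0.13 (adjusted p = 0.196). CYB5B, a mitochondrial cytochrome b5, had 83.1 FPKM in vector replicate 2 and 16.3 to 23.3 FPKM in the other 5 libraries (adjusted p = 0.413).

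Among genes that handle hydrocarbon metabolites and catechol oestrogens, 2 of 6 tested rose and 1 fell. That share was 50% (median 0.10), beside 11.4% of all tested loci called. AKR1C1, an aldo-keto reductase, had 10.2, 8.02 and 9.31 FPKM with circ_0005358, against 1.78, 1.67 and 1.23 FPKM with vector (log2 difference 1.99, standard error 0.12, adjusted p = 0.00102), and its call held under all 17 alternatives. Its near-identical paralogs make the split of reads between AKR1C genes uncertain. GSTP1, a glutathione transferase, averaged 102.1 ± 7.11 and 81.8 ± 2.79 FPKM, and STS, steroid sulfatase, 3.45 ± 0.0528 and 4.64 ± 0.104 FPKM, with circ_0005358 and with vector (SD, n = 3 each; adjusted p = 0.0406 and 0.0163). The GSTP1 call was lost without any 1 library (adjusted p up to 0.131), and the STS call without any but circ_0005358 replicate 2 (adjusted p up to 0.0686). EPHX1, the epoxide hydrolase that follows CYP1 enzymes on polycyclic hydrocarbons, averaged 226.6 ± 10.4 FPKM with circ_0005358 and 208.8 ± 9.01 FPKM with vector (SD, n = 3 each; adjusted p = 0.274).

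Of 11 tested relatives of TIPARP and enzymes that remove ADP-ribose, 2 rose and 0 fell (18.2%, median -0.055). MACROD1, a hydrolase of ADP-ribose, had 3.05, 3.51 and 3.33 FPKM with circ_0005358, against 1.42, 1.47 and 1.23 FPKM with vector (log2 difference 0.86, adjusted p = 0.00285), and held without any 1 library. PARP16, a transferase of the endoplasmic reticulum, averaged 5.30 ± 0.510 FPKM with circ_0005358 and 2.89 ± 0.638 FPKM with vector (SD, n = 3 each; adjusted p = 0.0371), a call lost without any 1 library (adjusted p up to 0.104). PARP4 and PARP14 had log2 differences of -0.24 and -0.23 (adjusted p = 0.0759 and 0.432). Without vector replicate 1 PARP14 passed, at -0.42 (adjusted p = 0.0386).

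The libraries listed 23227 to 23823 loci above 0 with circ_0005358 and 23764 to 27803 with vector, the highest in vector replicate 3. Fragment depth is not in the table. The commonest low value on loci with 1 known transcript put circ_0005358 replicate 2 at 70.8% of the deepest library and the others at 93.3% to 100%. Of a list of 10 cervical epithelial markers, 7 had a mean of at least 1 FPKM: KRT7, KRT8, KRT17, KRT18, KRT19, EPCAM and CDH1. The summed level of the list was 618 to 696 FPKM with circ_0005358 and 1272 to 1338 FPKM with vector. The sum was carried by KRT17 and KRT7, while CDH1, which encodes E-cadherin, had 0.945, 0.883 and 1.05 FPKM with circ_0005358 and 8.78, 15.8 and 16.8 FPKM with vector. The squamous and basal markers KRT5 and TP63 were at or near 0, up to 0.0414 and 0.254 FPKM. SFN was at 0 in all but vector replicate 2. These markers do not bear out the list's squamous label, but KRT17 of the same list was abundant. KRT17 had 192.3, 214.9 and 209.1 FPKM with circ_0005358 and 666.1, 584.0 and 625.5 FPKM with vector, so the list is divided on that label. Of the liver and endothelial markers 0 of 8 and 0 of 5 reached a mean of 1 FPKM. Of the fibroblast and leukocyte markers with rows of their own, LUM and CD14 were above it, and CD14 was low in circ_0005358 replicate 1, at 1.33 FPKM, while the other 5 libraries had 10.4 to 16.2 FPKM. The part of these differences in the values of the receptor genes was not tested.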

How the data were processed

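PolyA RNA from 6 SiHa libraries, 3 per plasmid, was measured by sequencing. The submitters' processing notes name the read trimmer Trimmomatic, the aligner HISAT2 and the build hg19. Which program and annotation gave FPKM was not stated in the sources used here. The deposited table gives FPKM, scaled by the authors for length and library size, so counting error could not be computed. Many identifiers look like those of assembled transcripts, and 1186 rows join several gene names. The table holds no coordinates; positions are from GENCODE 29 on GRCh38.

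A locus was tested if 3 or more of the 6 libraries reached FPKM 1. Values were transformed as log2(FPKM + 1) and fitted in limma 3.58.1 (R 4.3.3), letting the variance follow the mean level. Two-sided p-values were adjusted by Benjamini-Hochberg across the 10295 tested loci, with a threshold of 0.05. The fit was checked on simulated data. A list gene had its own row where the row carried its name alone or as the only protein-coding name. All members and every other pathway gene past the threshold were named, with the 2 most abundant genes of each list that had a row of their own. For each member the 3 loci of highest Pearson correlation were named, leaving out clone-named loci and pseudogenes. One of these loci is not reported here. Members and lists were chosen with earlier results of these data known. No member lay below the filter, so the test planned for such members was not needed. The alternatives were other pseudocounts (0.1 and 0.5), filters, scalings, variance models, library weights, a replicate block, summed rows and libraries left out.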

Additional observations from a re-analysis of the deposited data

How the results depend on the processing

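The count of changed loci, 1171, moved to 591 with no filter on low values, 259 with the replicate block, 198 without both vector replicate 3 and circ_0005358 replicate 2, and 485 to 761 without 1 library. Rises among the other pathway genes, 13, moved to 7, 3, 2 and 6 to 10 under the same settings and to 8 with FPKM of at least 5, and falls, 8, to 5, 4, 4, 5 to 8 and 5. CYP1A1 and CYP1B1 kept their direction under all 17 alternatives. Without both of those libraries CYP1A1 was at 0.66 (adjusted p = 0.0949) and CYP1B1 at -0.45 (adjusted p = 0.0708). With the replicate block CYP1A1 was at 0.75 (limma adjusted p = 0.0483) and CYP1B1 at -0.44 (adjusted p = 0.0760). ALDH3A1 and IL6 were among the pathway calls lost with the block (adjusted p = 0.0794 and 0.0616), as were HMOX1 and BLVRB. The pathway calls left with it were those of PTGES3, AKR1C1, MACROD1, EREG, HES1, STC2 and TGFBI. AHR and ARNT kept their direction and were called under 0 of 17 (limma; lowest adjusted p 0.143 and 0.279, unadjusted p 0.0574 and 0.253 in the fit reported). AHRR was at -0.0089 after rescaling to the same sum and from -0.011 to 0.055 without 1 library. TIPARP was at 0.034 without both libraries and from -0.39 to 0.019 without 1 library. SLC7A5 ran from -0.087 to 0.54 and SLC3A2 from -0.11 to 0.11 without 1 library, and SLC3A2 was at -0.014 after rescaling. The causes were not tested. Same-numbered libraries of the groups had deviations that correlated at 0.064, 0.048 and 0.078, and the other pairs were at -0.054 to -0.011. These values are small and the main fit did not pair libraries by number, although each library correlated best with its own number. Because FPKM carries no counts, low genes such as CYP1A2 and ARNT2 cannot be resolved.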

Other observations

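Some bHLH-PAS and steroid genes below the filter had groups that did not overlap, and they were named after their values were seen, with no test. Groups did not overlap for 35.8% of the tested loci, and the share among loci below the filter was not computed. ARNTL2, a partner of the clock factors, had 0.398, 0.389 and 0.490 FPKM in the circ_0005358 libraries, against 1.46, 1.17 and 0.935 FPKM in the vector libraries. NPAS2, a relative of CLOCK, had 0.264, 0.309 and 0.372 FPKM with circ_0005358 and 0.737, 0.767 and 1.14 FPKM with vector. HSD17B2, which inactivates oestradiol, had 0.0278, 0.0128 and 0.00789 FPKM with circ_0005358 and 0.213, 0.230 and 0.136 FPKM with vector.

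Some pathway rows differed between libraries of 1 group by more than the groups differed, also seen after the fact. CDKN1B, a cyclin-dependent kinase inhibitor gene, had 16.2, 3.58 and 13.5 FPKM with circ_0005358 and 2.56, 13.5 and 10.7 FPKM with vector. The row shared by the UGT1A genes had 2.79, 2.24 and 2.51 FPKM with circ_0005358 and 2.39, 4.97 and 4.80 FPKM with vector, its low vector value in the same library as that of TIPARP.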
